A study of Laguncularia racemosa with 22 samples.

Results

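Leaves of the white mangrove Laguncularia racemosa, a tree of tropical tidal shores, were compared after 12 h and at 0 h in the seedlings that carry the letter P in the sample titles. The libraries were chosen by letter and time, 3 at each time, which makes 6 of the 22 libraries of the series. All came from leaves of plants labelled wild type and 8 weeks old, grown at 30 °C by day and 28 °C by night. The P libraries are labelled freezing temperature, for 0 h or for 12 h, and the protocol gives that temperature as 0 °C. A second letter, Q, is labelled control at the same times, with 3 libraries at 0 h and 3 at 12 h. The same protocol text stands with both letters, and the treatment given to Q is not described in it. Seeds were collected at more than one place, and no label ties a letter to a place. Whether the libraries of one group are separate plants is not stated, so p-values speak of the spread between libraries, which may be technical.

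Plants of warm climates are injured by temperatures that hardier plants survive. In Arabidopsis, where the response is best known, cold raises CBF transcription factors within hours, and these switch on COR genes whose products protect membranes and proteins. Leaf transcripts also follow the circadian clock, with sets of genes that peak at opposite times of day. The deposited table carries assembled gene IDs without names, so none of these gene groups could be looked up, leaf marker genes could not be checked, and the genes below are grouped by what they did.

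Total counts per library were 16921089 to 18462363 at 0 h and 13743563 to 15683481 at 12 h, so each 12 h library was shallower than each 0 h library. Of the 54696 genes in the table, 21694 were left by the low-count filter for testing. Libraries of one time lay a mean of 0.49 to 0.63 log2 units per gene from each other, and libraries of different times 0.83 to 0.92.

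After 12 h the leaf transcriptome of P differed widely from that at 0 h. In edgeR's quasi-likelihood test 6963 genes passed a Benjamini-Hochberg adjusted p of 0.05, which is 32.1% of those tested. Of these, 3368 genes were higher (15.5%) and 3595 lower (16.6%). The median log2 change was 1.05 among the genes that rose and -1.00 among those that fell, against -0.04 over all genes tested. In bulk leaf tissue, a change in the number of cells of a type and a change of RNA per cell cannot be told apart. Cold, hour of the day, light and handling cannot be told apart either, because no group is documented as untreated over the same 12 h. With library totals in place of TMM scaling 36.6% of the calls were higher instead of 48.4%, and the median of all genes was -0.17. Tested against a minimum change of 2-fold, 1415 genes passed (6.52%), 833 higher and 582 lower.

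Most of the calls separated the 3 libraries of one time from those of the other. In 3184 of the genes that rose and 3414 of those that fell, the 12 h libraries did not overlap the 0 h libraries. These make up 94.8% of the calls, while 42.1% of all genes tested showed no overlap. The other 365 calls had at least 1 library inside the range of the other time. The same libraries made the calls, so the separation among them is largely given by the choice. Among genes above 10 CPM (counts scaled to a common library size by TMM), the median SD between libraries was 0.17 log2 units at 0 h and 0.18 at 12 h.

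The size of the change varied by orders of magnitude. Among the genes that rose, 1608 changed by less than 2-fold, 911 by 2 to 4-fold, 666 by 4 to 16-fold and 183 by 16-fold or more. Among those that fell the numbers were 1794, 1149, 558 and 94 in the same order. Among the calls, large changes lay at lower levels than small ones. Genes at low levels needed large changes to pass, so this is partly given by the test. Rises of 16-fold or more numbered 76, 54, 40 and 13 under 1, from 1 to 10, from 10 to 100 and at 100 CPM or more. Falls of that size numbered 41, 25, 15 and 13. These classes held 5651, 5363, 8695 and 1985 of the genes tested. The median level of the genes that rose was 47.8 CPM in the smallest class of change and 2.01 CPM in the largest, and for the genes that fell 32.6 and 1.14 CPM. Of the genes that changed by 16-fold or more, 170 of 183 that rose and 89 of 94 that fell had no overlap between the times. The share was 94.8% over calls of all sizes and 42.1% over all genes tested.

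The share of genes called was larger at higher levels, where the standard errors were smaller. Of the genes under 1 CPM on average over all libraries, 9.89% passed the test, with a median standard error of 0.94 log2 units. The share was 27.5% from 1 to 10 CPM and 44.5% from 10 to 100 CPM. Among the 1985 genes of 100 CPM or more it was 53.5%, with a median standard error of 0.14. In this top class 643 genes rose and 419 fell, but with library totals in place of TMM it had 497 rises and 567 falls. The balance in the other classes depended on the scaling too: from 10 to 100 CPM it was 1832 rises and 2033 falls with TMM, and 1971 and 1911 with RLE scaling. A gene that missed the threshold is not thereby shown to be stable. Of the 14731 genes that did not pass, with a median standard error of 0.43 log2 units, 6087 had a 95% interval of the change within 2-fold either way.

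**Figure D1:**
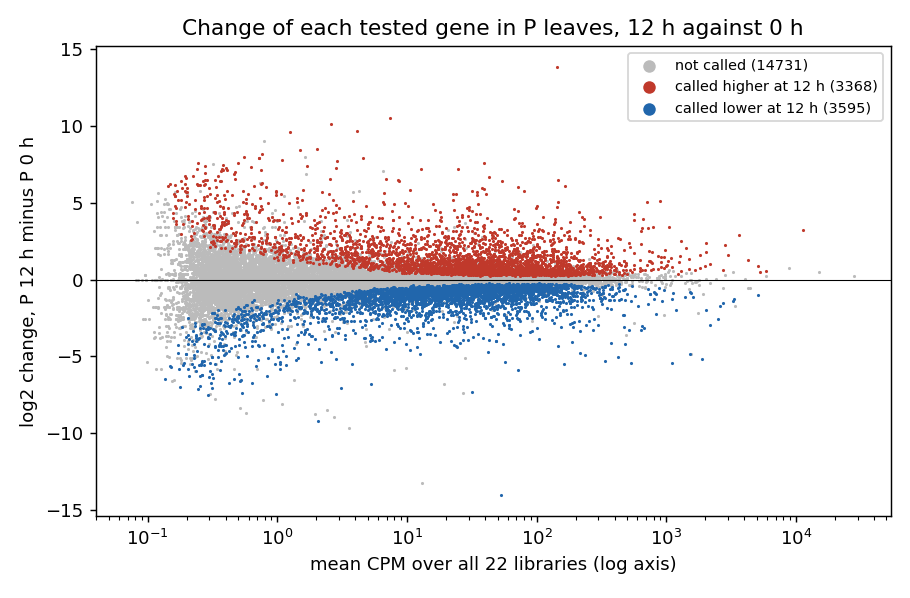
Each point is a tested gene, with its mean CPM over all 22 libraries on a log axis and its log2 change from 0 to 12 h in P. Called genes (3368 higher in red, 3595 lower in blue) reach down to small changes at high levels and need large changes at low levels.

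The pair of genes whose mean CPM moved most in each direction is given by ID. They were taken from called genes without overlap between the times, so their separation and their passing the test in P follow from the choice. CPM takes no account of transcript length, so values compare libraries for one gene and not genes with each other.

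TRINITY_DN325_c0_g1 stood at 2525, 2562 and 4202 CPM in the libraries of P at 0 h and at 23514, 28236 and 33834 CPM at 12 h. All 12 h libraries were far above all 0 h libraries, and the gene went from rank 23 to rank 2 among tested genes by mean CPM. The fitted rise was 9.21-fold (log2 3.20, standard error 0.27, adjusted p 2.31e-08 in edgeR). Its Trinity cluster, a set of assembled genes that share sequence, lists 3 genes. The other tested member was at 0.776 CPM at 0 h and 1.17 CPM at 12 h and did not pass the test.

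TRINITY_DN434_c9_g1 was at 742, 1125 and 1033 CPM at 0 h and at 7686, 6340 and 7156 CPM at 12 h. The times were again fully separate. The rise was 7.30-fold (log2 2.87, standard error 0.19, adjusted p 1.33e-09 in edgeR). It is the only gene of its cluster in the table, as are both genes below.

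TRINITY_DN30863_c0_g1 went from 4797, 3617 and 4432 CPM at 0 h to 76.7, 149 and 140 CPM at 12 h. It lost nearly all of its counts in each 12 h library, and went from rank 16 to rank 1676. The fall was 35.2-fold (log2 -5.14, standard error 0.35, adjusted p 2.31e-09 in edgeR).

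TRINITY_DN34306_c0_g1 was at 4065, 4946 and 5442 CPM at 0 h and at 675, 1000 and 774 CPM at 12 h. Each 12 h library was below each 0 h library. The fall was 5.90-fold (log2 -2.56, standard error 0.29, adjusted p 1.18e-06 in edgeR).

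The 3 h libraries of P, 2 in number, lay between those of 0 and 12 h on average in all 4 of these genes. TRINITY_DN325_c0_g1 was at 6679 ± 1599 CPM (SD, n = 2) and TRINITY_DN434_c9_g1 at 1776 ± 193 CPM (SD, n = 2) at 3 h. TRINITY_DN30863_c0_g1 stood at 2617 ± 1.46 CPM (SD, n = 2) and TRINITY_DN34306_c0_g1 at 3650 ± 31.4 CPM (SD, n = 2). By 36 h, which stands for 12 h of cold and 24 h of recovery, the same genes that rose stood at 9695 ± 4170 and 3894 ± 182 CPM (SD, n = 2 each). TRINITY_DN30863_c0_g1 was at 13.1 ± 6.87 CPM (SD, n = 2), and TRINITY_DN34306_c0_g1 was at 589 ± 388 CPM (SD, n = 2).

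In Q the same 4 genes changed in the same direction from 0 to 12 h. TRINITY_DN325_c0_g1 went from 2148 ± 443 to 19565 ± 1166 CPM and TRINITY_DN434_c9_g1 from 802 ± 128 to 7712 ± 514 CPM (SD, n = 3 each). TRINITY_DN30863_c0_g1 went from 5107 ± 1602 to 66.1 ± 22.9 CPM and TRINITY_DN34306_c0_g1 from 4553 ± 388 to 908 ± 263 CPM (SD, n = 3 each). The adjusted p-values in edgeR were 1.92e-08, 3.07e-10, 3.63e-10 and 2.42e-06 in the order given. The change in P differed from that in Q by a log2 of 0.02, -0.40, 1.13 and -0.23, with standard errors of 0.35, 0.26, 0.41 and 0.38. None of these differences passed in edgeR (adjusted p 0.999, 0.521, 0.206 and 0.843). For TRINITY_DN30863_c0_g1 the unadjusted p from the same fit was 0.0134.

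**Figure D2:**
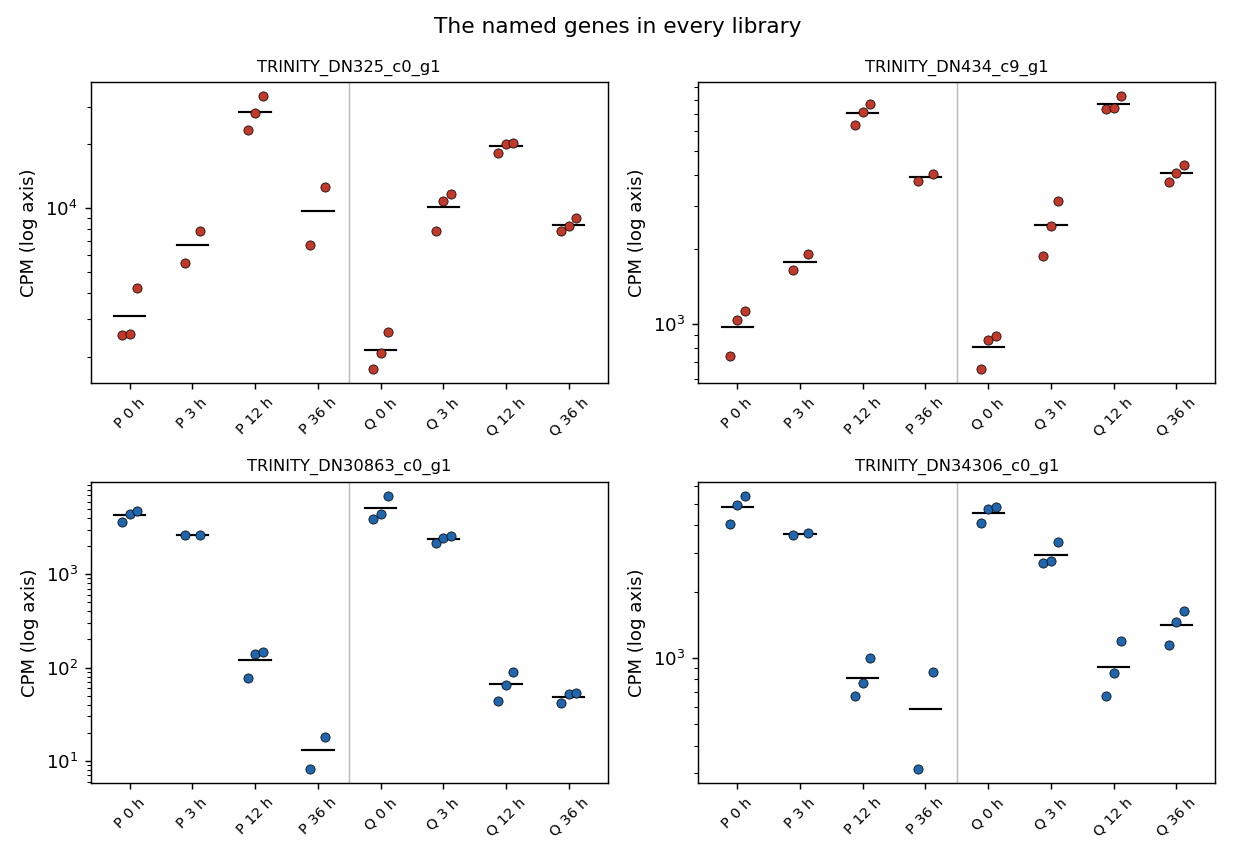
CPM on a log axis of the 4 named genes in all 22 libraries, by letter and time; points are libraries and bars are group means. In P, TRINITY_DN325_c0_g1 and TRINITY_DN434_c9_g1 (red) are highest at 12 h, and TRINITY_DN30863_c0_g1 and TRINITY_DN34306_c0_g1 (blue) are far below their 0 h level there.

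The genes that changed held much of the leaf's transcript counts. The 3368 genes that rose took 18.7%, 19.6% and 20.4% of all counts in the libraries of P at 0 h and 39.4%, 39.1% and 40.5% at 12 h. The 3595 that fell went from 28.3%, 28.0% and 28.4% to 11.7%, 11.9% and 11.7%. These libraries chose the genes, so the separation of the times in them follows from the choice and is given as a description. The comparison that named these genes did not include Q, although the Q libraries entered the filter, the scaling and the shared estimate of the spread. There the risers of P held 19.2% ± 1.01 of the counts at 0 h and 38.1% ± 0.87 at 12 h (SD, n = 3 each). The fallers of P held 29.0% ± 1.41 and 12.2% ± 0.42 (SD, n = 3 each). The Q libraries of the different times did not overlap in either share, and the two-sided exact permutation p was 0.1 for each, the smallest that 3 libraries against 3 allow.

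**Figure D3:**
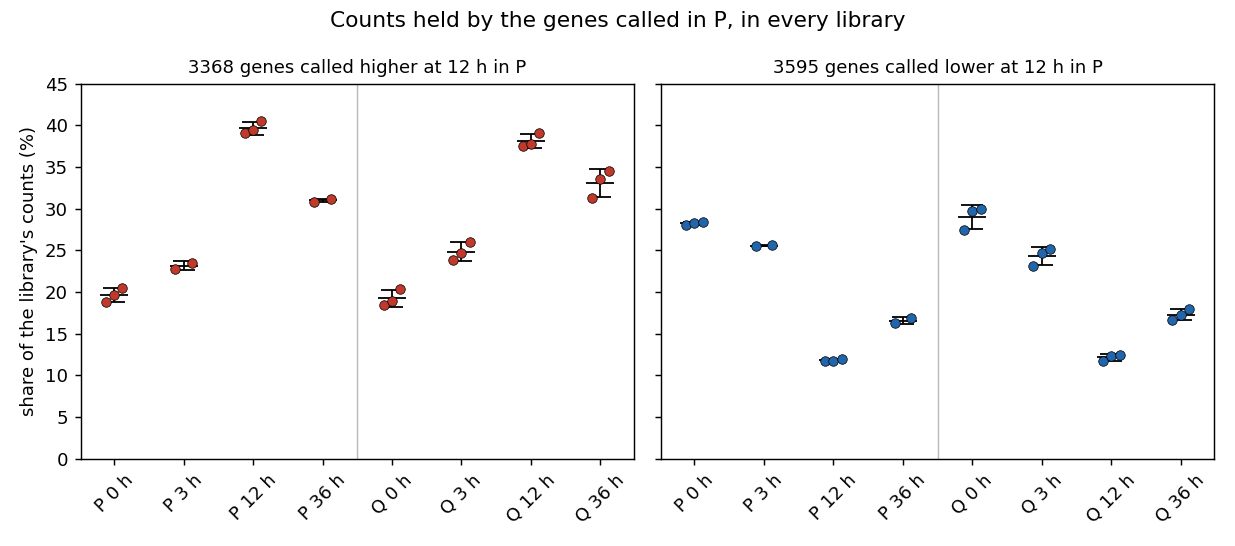
Share of each library's counts, in percent, held by the genes called higher (red) and lower (blue) at 12 h in P; points are libraries, and bars are the mean and SD of a group. Q was not in the comparison that called the genes. There the first share went from 19.2% to 38.1% and the second from 29.0% to 12.2% between 0 and 12 h.

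A few genes carried much of the shift in counts. The 10 genes with the largest rise in mean CPM made up 23.8% of the summed rise, and the 100 with the largest rise 52.0%. For the falls the shares were 20.7% and 49.8%. Of the 79 genes among the 100 with most counts in each 0 h library, 15 were called higher and 29 lower at 12 h. Of the 83 in the same position at 12 h, 48 were called higher and 5 lower. Choice by high counts at 0 h favours falls, and choice at 12 h favours rises. Over all genes tested 15.5% were called higher and 16.6% lower. Of the 1985 genes of 100 CPM or more, 643 were called higher and 419 lower. The lists of all 6 libraries had 46 genes in common.

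The 100 genes with most counts held 27.1%, 26.9% and 23.9% of the library at 0 h and 28.9%, 29.4% and 27.4% at 12 h. Each 12 h value was above each 0 h value, though the lowest at 12 h and the highest at 0 h lay close together. The mean difference was 2.59 percentage points, with a two-sided exact permutation p of 0.1, the smallest possible here. Without replicate 3 of P at 0 h it was 1.56 points (exact permutation p 0.2), and without replicate 1 or 2 of P at 12 h it was 2.43 or 2.17 points (exact permutation p 0.2 and 0.3).

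The number of genes at 1 CPM or more was 15413, 15540 and 15174 at 0 h and 15505, 15252 and 15390 at 12 h. The times overlapped, and the means of 15376 ± 186 and 15382 ± 127 (SD, n = 3 each) could not be told apart in the exact permutation test (two-sided p = 1). At 5 CPM or more the difference was -167 genes, with a two-sided exact permutation p of 0.1. Genes with any count were fewer at 12 h, 28897 ± 85.2 against 31585 ± 1301 (SD, n = 3 each), beside the lower totals there. With all libraries thinned to the smallest total the difference was -1701 genes, again with a two-sided exact permutation p of 0.1.

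Some genes went from no counts to a clear signal or the reverse. In 12 genes (0.0553% of those tested) all 0 h libraries had 0 counts and each 12 h library at least 10. All 12 passed the edgeR test, which the choice favours, since the same libraries chose and tested them. They had 11 to 236 counts per library at 12 h. Against a floor of 3 counts over the 0 h group, they were at least 18.1 to 202-fold higher. In the 3 h libraries of P, 2 of the 12 still had no count and 7 had counts in both, and at 36 h 6 had at least 10 counts in both. In Q 10 of the 12 were called higher at 12 h, against 17.9% of all genes tested there. Of the 12, only 3 had no count in any 0 h library of Q, and 3 met the same rule in Q.

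The reverse pattern, at least 10 counts in each 0 h library and none at 12 h, was met by 9 genes (0.0415% of those tested). Of these, 8 passed the test, which the choice favours again. In the 9 genes the 0 h libraries held 10 to 2847 counts, and the genes were at least 9.29 to 1695-fold lower at 12 h. At 3 h, 8 of the 9 had counts in both P libraries. At 36 h, 2 of the 9 had no count in either, and 1 had at least 10 in both. In Q 6 of the 9 were called lower, against 19.9% of all genes tested there. Of the 9, only 3 had no count in any 12 h library of Q, and 2 met the same rule in Q.

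A different set of genes was on or off between libraries of the same time. Taking at most 1 count in one library and at least 100 in another, a limit set after the values were seen, 25 genes did this at 0 h and 21 at 12 h, together 39 genes. The rule picks genes with a wide spread within a time, against which the test weighs the change, so few calls follow from the choice. Of the 39, 3 passed the test (7.69%), against 32.1% of all genes tested. The clearest, singled out after its values were seen, had 0, 3 and 0 counts at 0 h and 1, 18571 and 18653 counts at 12 h. Its other libraries in P held 329 and 3 counts at 3 h and 4079 and 1 at 36 h. In Q it had 0, 682 and 935 counts at 0 h and 60, 2 and 1 at 12 h. Its log2 change of 13.8 in P had a standard error of 4.33 (adjusted p 0.0238 in edgeR). The adjusted p was 0.0768, 0.0864 or 0.0761 without replicate 1, 2 or 3 of P at 0 h, with log2 changes of 13.3, 16.8 and 13.2. It was 0.014, 0.0416 or 0.0395 without replicate 1, 2 or 3 of P at 12 h, where the call was kept. More than 1 library could be low for a gene. Replicates 1, 2 and 3 were low in 15, 4 and 4 of the 21 genes at 12 h and in 16, 12 and 8 of the 25 at 0 h.

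Most of the genes called in P were also called in Q, which shares no library with P. Both comparisons came from the same fit with a shared estimate of the spread, so the 2 sets of calls are not independent. The change in Q called 8194 genes (37.8%), 3874 higher (17.9%) and 4320 lower (19.9%). The genes that rose in both letters were 72.4% of the P list and 62.9% of the Q list, and those that fell in both 73.6% and 61.2%. Among the risers of P the share also called higher in Q was 62.7% below 2-fold, 83.2% from 2 to 4-fold, 79.1% from 4 to 16-fold and 79.2% at 16-fold or more. Among the fallers the shares were 73.4%, 79.8%, 64.3% and 56.4%. The largest falls, 94 genes, had a median log2 change of -4.51 in P and -2.94 in Q, and the largest rises, 183 genes, 4.67 and 4.29. P chose these genes by size, so a smaller value in Q is partly given by the choice.

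**Figure D4:**
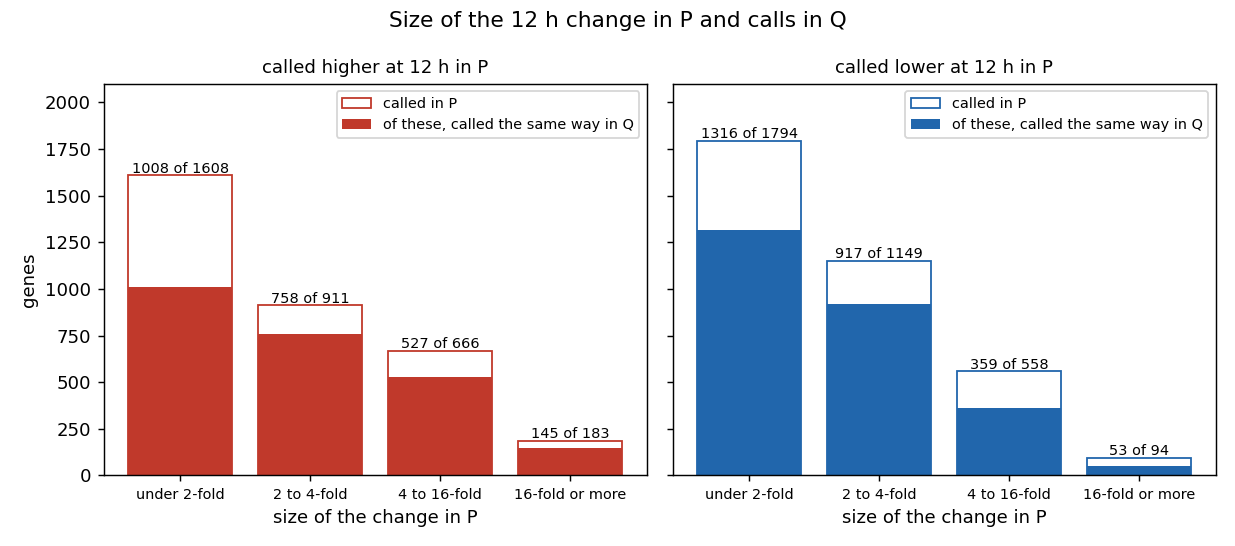
Number of genes called higher (left) and lower (right) at 12 h in P by the size of the change; open bars are all genes called in P and filled bars those also called in the same direction in Q. The filled part is 145 of 183 for the largest rises and 53 of 94 for the largest falls.

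Tested directly as an interaction, the change from 0 to 12 h differed between the letters for 10 genes (0.0461% of those tested). The change was the higher one in P for 6 of them and the lower one for 4. Before adjustment, 3094 of the 21694 genes tested had a p under 0.05 in the same edgeR test. Of the 10, 1 had risen and 7 had fallen in P, and in 8 cases the change in P was itself called. None of the 8 changed by 4-fold or more in P. The number depended on the processing: it was 691 with DESeq2, 232 with no filter, 40 with a stricter filter, 3 with RLE scaling or thinned counts, 1 with the replicate block over all libraries and 0 with only the libraries compared. It also depended on single libraries. Among the 0 h libraries, leaving out P replicates 2 or 3 or Q replicates 1 or 3 gave 0 genes, P replicate 1 gave 204 and Q replicate 2 gave 230. Among the 12 h libraries, leaving out P replicate 3 or Q replicates 1 or 2 gave 0, P replicate 2 gave 3, Q replicate 3 gave 31 and P replicate 1 gave 388.

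Over the other times, the genes chosen at 12 h in P showed an intermediate course. The risers of P had a median log2 change from 0 h of 0.21 at 3 h and 0.63 at 36 h, beside 1.05 at 12 h, and the fallers -0.13 and -0.57, beside -1.00. All of these share the 0 h libraries, and P has 2 libraries at 3 h and 2 at 36 h. The genes were chosen by their change at 12 h in P, so smaller medians at the other times are partly given by the choice. In Q, against its own 0 h libraries, the same risers had medians of 0.28, 0.94 and 0.63 at 3, 12 and 36 h, and the same fallers -0.19, -0.98 and -0.53. The medians over all genes tested lay between -0.04 and 0.00 in each of these comparisons.

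Assembled genes of one Trinity cluster did not always go the same way. Of the tested genes 4943 (22.8%) share a cluster with another tested gene, and 32.2% of them were called, against 32.1% of the genes alone in theirs. Of the 2175 clusters with at least 2 tested members, 365 had at least 2 called. All called members were higher in 116 clusters and lower in 101, and in 148 clusters (40.5% of the 365) at least 1 rose while another fell. With 48.4% of all calls higher, calls of both directions are common among any genes, and nothing particular to clusters is read from this share. In 94 of the 148, Q called a member that rose in P as higher and a member that fell in P as lower. In 0 did it call both in reverse. Over all calls in P, Q called 72.4% of the risers higher and 73.6% of the fallers lower. Only 9 risers and 6 fallers were called the opposite way in Q. Nothing particular to clusters is read from the 94 either. With the counts of a cluster summed, 72 of the 148 did not pass the test, 46 were higher and 30 lower. How reads were divided between members of a cluster is not stated, and its part in these opposite changes was not tested.

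One such cluster, singled out after its values were seen as the one whose smaller change was largest among members of at least 5 CPM, shows the pattern. The cluster lists 3 genes, of which 2 were tested. The member that rose went from 139, 144 and 202 CPM at 0 h to 563, 607 and 671 CPM at 12 h. The member that fell went from 19.2, 9.83 and 8.07 CPM to 0.308, 0.151 and 1.10 CPM. Its 12 h values rest on 4, 2 and 16 counts. The times did not overlap in either member. The log2 changes were 1.93 with a standard error of 0.19 and -4.52 with a standard error of 0.85 (adjusted p 2.09e-07 and 0.000515 in edgeR). In Q they were 2.37 and -3.51 (adjusted p 1.35e-08 and 0.00191 in edgeR).

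**Figure D5:**
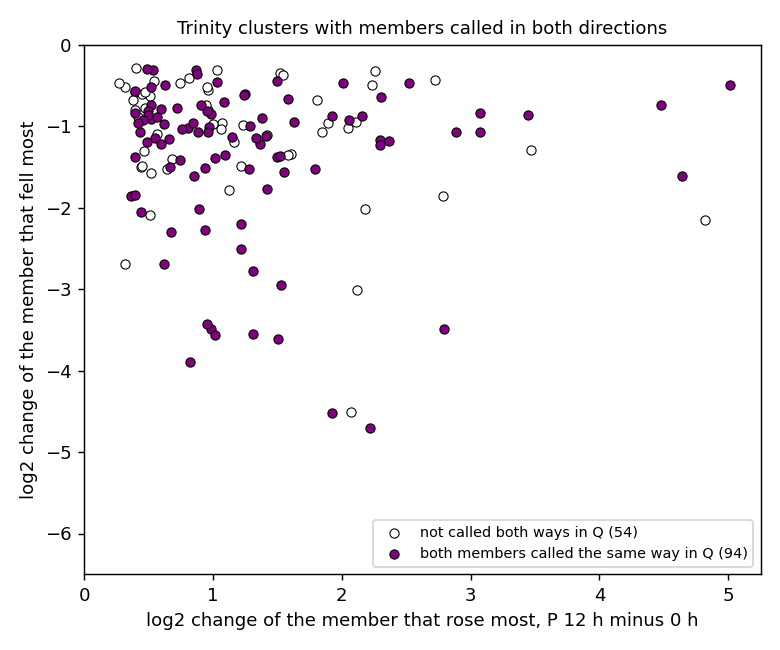
Each point is one of the 148 Trinity clusters with members called in both directions in P, with the log2 change of the member that rose most against that of the member that fell most. Filled points are the 94 clusters with a rising and a falling member called in the same directions in Q.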

How the data were processed

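The authors deposited raw counts, 1 whole number per assembled gene and library, with no normalization. The read checker FastQC, the aligner HISAT2 and the counter featureCounts are named, without versions, per the submitters' processing notes. The sequence used for alignment is not given in the sources. Each of the 22 value columns was matched to a sample title, with 0 others. Mean chi-square per gene between libraries of a group was 19.0 to 57.2, where sampling noise alone gives about 1, so no pair was treated as one library; this does not show that they are separate plants.

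Tests used edgeR 4.0.16 (R 4.3.3) with filterByExpr (minimum count 10), TMM, dispersions over all 22 libraries in 8 groups (common biological coefficient of variation 0.26), robust quasi-likelihood test, and Benjamini-Hochberg adjustment over all genes tested. A standard error is the log2 change over the root of F. Genes at 0 in a group were set to a bound from 3 counts in classes of size and medians at 12 h in P. Floors cover counting error only; the interval of a log2 change comes from its standard error and carries the spread between libraries. Named genes were the 2 called genes in each direction, without overlap between times, with the largest difference of mean CPM. The comparison and gene classes were chosen with earlier results of these data known. DESeq2 1.42.0 and the other alternatives are given in the closing section.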

Additional observations from a re-analysis of the deposited data

Results flagged for a closer look

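The change from 0 to 12 h differed between P and Q for 10 genes in the interaction test of edgeR, at an adjusted p under 0.05. This number ran from 0 to 388 over the 12 fits that each left out 1 library of the 4 groups, as listed by library with the result above.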

How the results depend on the processing

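The number of genes called at 12 h against 0 h in P, 6963, was 4645 to 7478 under the other scalings, filters, tools, fits and thinned counts, and 5953 to 6249 with 1 library of P left out; in each of these fits 0 genes called in both had changed direction. Tested against a minimum change of 2-fold it was 1415 (6.52%). The share of calls that were higher, 48.4%, was 51.4% with RLE scaling, 36.6% with library totals alone, 50.7% with a stricter filter (10 counts in 11 libraries), 51.4% with DESeq2, 51.0% with only the libraries compared, 51.7% with these and the replicate block, and 48.1% to 50.7% with 1 library left out. The 10 genes of the interaction became 3 with RLE scaling or thinned counts, 232 with no filter, 40 with the stricter filter, 691 with DESeq2, 1 with the replicate block over all libraries, 0 with only the libraries compared, with or without the block, and 0 to 388 with 1 library left out; the cause was not tested. The 4 named genes passed with the same direction in all 15 alternatives each, with adjusted p-values of 0.000859 or less. The difference in genes detected, 6.67 at 1 CPM, was -167 at 5 CPM (exact permutation p 0.1), -2688 with any count, -1701 with any count after thinning (added after seeing the data), and -94.2 to 88.8 with 1 library left out. The difference in the share of the top 100 genes, 2.59 percentage points, was 1.56 to 3.17 with 1 library left out. Same-numbered libraries of P had correlated deviations of -0.01, 0.00 and 0.10, beside -0.14 to 0.12 for libraries of different numbers. With 3 libraries at each time this cannot show whether same-numbered libraries share a plant or a batch. The replicate block over all libraries gave 6847 calls in P. Low counts limit what could be called: the median standard error was 0.94 log2 units under 1 CPM.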
